A study of Rattus norvegicus with 6 samples.

Results

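The transcripts described here are 10 genes of skeletal muscle, Acta1, Tnnc2, Tnni2, Tnnt3, Myl11, Myh4, Mylk2, Actn3, Ckm and Mb, many but not all of them markers of fast-twitch fibres. They were measured by array in the spinal cord of rats that model amyotrophic lateral sclerosis. They were picked by name with earlier results of these data known, in which muscle genes stood among the transcripts with the largest deficit in the end-stage mutant pool. The end-stage mutant and WT values therefore chose them and are given below as a description, with no test. The array covers 12978 genes by a probe with 1 gene symbol, and each of the 10 genes has 1 probe. All 10 were detected on at least 1 array (detection p-value below 0.01), as were 8752 genes of the array, and 8 of the 10 were detected on all 6 arrays.

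The mutant rats carry the SOD1 gene with the G93A mutation, and the reference animals are their wild type (WT) littermates. All are labelled as female Sprague-Dawley rats. The groups were mutant presymptomatic, WT presymptomatic, mutant onset, WT onset, mutant end stage and WT end stage, where the WT rats carry the stage name of the mutants they were matched to. Each group is 1 pool of RNA from 5 rats, of which 750 ng was labelled for 1 array, so differences between single rats cannot be seen and 1 animal could set the value of a pool. The labels give an age of 10 weeks for all 6 pools, an age that in the submitters' account of the design belongs to presymptomatic rats only, and they name both lumbar and thoracic cord, so neither age nor segment was used.

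Skeletal muscle contracts when calcium binds troponin on the thin filament, which lets the myosin heads of the thick filament pull on actin. Fast and slow fibres build this machinery from different genes, so Tnnc2, Tnni2, Tnnt3, Myl11, Myh4 and Actn3 are used as markers of fast fibres. The spinal cord holds the motor neurons that drive these fibres but is not known as a site of the sarcomere, and no skeletal muscle is labelled in any sample.

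The promoters of 8 of the 10 genes were found in the RefSeq table of build GRCr8, and those of Tnnt3 and Mylk2 were not matched. Of these, 5 are shown because they stand for the roles described below: the thin filament (Acta1 and Tnnc2), the thick filament (Myh4), energy supply (Ckm) and oxygen storage (Mb, the member that differed in pattern from the rest). Each run is the 250 bases before the start of the gene, 5′ to 3′ on the strand of the gene. Capitals mark matches to letters that muscle regulators are known to bind or, for the TATA box, the general start machinery. Those are the E-box (CANNTG, the same on both strands), the MEF2 site, the CArG box, the M-CAT element (CATTCC on either strand) and the TATA box (TATAAA on the strand of the gene). No 2 matches overlapped.
Acta1 promoter, chr19:68784195-68784444, minus strand: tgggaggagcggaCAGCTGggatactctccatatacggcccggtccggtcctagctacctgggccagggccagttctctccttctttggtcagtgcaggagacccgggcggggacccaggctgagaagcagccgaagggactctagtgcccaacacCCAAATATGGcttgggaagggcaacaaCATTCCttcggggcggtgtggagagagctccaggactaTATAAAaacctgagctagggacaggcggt
Tnnc2 promoter, chr3:173935340-173935589, minus strand: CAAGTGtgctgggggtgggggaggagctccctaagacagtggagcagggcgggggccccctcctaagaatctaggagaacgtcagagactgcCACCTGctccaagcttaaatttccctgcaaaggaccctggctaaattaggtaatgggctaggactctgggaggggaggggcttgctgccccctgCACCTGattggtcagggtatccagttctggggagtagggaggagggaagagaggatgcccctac
Myh4 promoter, chr10:52421898-52422147, plus strand: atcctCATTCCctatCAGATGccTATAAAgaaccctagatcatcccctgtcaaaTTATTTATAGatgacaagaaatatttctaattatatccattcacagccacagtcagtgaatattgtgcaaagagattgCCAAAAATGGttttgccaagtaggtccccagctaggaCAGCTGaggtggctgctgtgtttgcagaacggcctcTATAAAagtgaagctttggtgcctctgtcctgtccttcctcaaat
Ckm promoter, chr1:88189211-88189460, plus strand: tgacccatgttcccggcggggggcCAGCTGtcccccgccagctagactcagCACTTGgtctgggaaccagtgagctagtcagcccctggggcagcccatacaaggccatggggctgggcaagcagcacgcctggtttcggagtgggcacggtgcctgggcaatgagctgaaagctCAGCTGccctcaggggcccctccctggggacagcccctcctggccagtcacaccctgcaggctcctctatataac
Mb promoter, chr7:110647743-110647992, minus strand: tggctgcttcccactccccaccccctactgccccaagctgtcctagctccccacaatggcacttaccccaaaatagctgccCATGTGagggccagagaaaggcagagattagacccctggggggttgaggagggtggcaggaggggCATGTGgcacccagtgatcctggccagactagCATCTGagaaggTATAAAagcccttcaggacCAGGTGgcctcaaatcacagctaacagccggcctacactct

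An E-box, the letters bound by MyoD and its relatives, was present in 7 of the 8 promoters and in 65.5% of all 33469 promoters of the table. The CArG box, bound by serum response factor, was present in 2 of the 8 (Acta1 and Myh4) and in 1.5% of all promoters. A MEF2 site was present in 1 (Myh4), against 2.96% of all, an M-CAT element in 2 (Acta1 and Myh4), against 12.1%, and the TATA box in 3 (Acta1, Myh4 and Mb), against 8.06%. The promoter of Actn3 held none of these letters in this window. Such matches are descriptions of sequence and do not show binding. Of the 8 genes, Actn3, Tnni2, Myl11 and Ckm lie on chromosome 1 and the others on 4 other chromosomes. In the RefSeq gene table Tnnt3 and Tnni2 are near neighbours on chromosome 1, with 5 coding genes between them.

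The gene names rest on a correction. In the deposited table of intensities the probe IDs did not follow the rows, and they were sorted as text before use. With the sorted IDs, detection on all 6 arrays was seen for 86.4% of 125 probes of ribosome, respiratory chain and proteasome genes and for 1.38% of 1304 probes of olfactory and other sensory receptors. With the IDs as deposited these shares were 40.8% and 37.8%. The arrays had 9116 to 10942 detected probes of 22226. The presymptomatic mutant pool stood apart, with the fewest detected probes and rank correlations of 0.857 to 0.869 with the other arrays, and the limma comparisons and the correlations below are given with and without it. Differences between single pools that use it have no value without it. Neuron, oligodendrocyte and astrocyte genes were all detected on at least 1 array (11 of 11, 9 of 9 and 7 of 7 on the array), so the samples carried the markers of the labelled tissue.

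The sum of the members ran opposite in the genotypes between onset and end stage. Over the 10 probes, the deposited intensity (linear units, background already subtracted by the authors' software) was 2563, 4676 and 1318 in the mutant pools at the presymptomatic stage, onset and end stage. In the WT pools of the same stages the sum was 2996, 4664 and 7535. The end-stage mutant pool was the lowest of all 6 and the end-stage WT pool the highest, at 0.0179% and 0.102% of all intensity on their arrays. The end-stage mutant pool was the lowest for 8 of the 10 genes and the end-stage WT pool the highest for 6 and the second highest for 3. Mb was in neither count, and Mylk2 was highest in the presymptomatic WT pool.

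Acta1, the skeletal muscle form of actin, the backbone of the thin filament, had intensities of 838, 1108 and 503 in the mutant pools at the presymptomatic stage, onset and end stage. Its intensities were 943, 1270 and 1976 in the WT pools of these stages. The WT pools differed among themselves by more than the mutant and WT pools of the presymptomatic stage or onset did, and the end-stage mutant pool lay below all 5 others. Tnnc2, the fast troponin C that binds calcium, had 877, 877 and 237 in the mutant pools and 724, 1073 and 2023 in the WT pools. The presymptomatic mutant pool was above its WT pool, and the end-stage pools were the extremes in both directions.

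Tnni2, the fast form of the inhibitory troponin subunit, had 118, 312 and 58.2 in the mutant pools and 131, 234 and 373 in the WT pools. Its onset mutant pool was above the onset WT pool and below the end-stage WT pool. Tnnt3, the fast troponin T that ties the complex to tropomyosin, had 65.5, 217 and 77.3 in the mutant pools and 115, 325 and 346 in the WT pools. It is the only one of the 3 fast troponin genes for which the presymptomatic mutant pool, rather than the end-stage one, had the lowest intensity, and every mutant pool was below the WT pool of its stage.

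Myl11, the fast regulatory light chain of myosin, had 205, 629 and 104 in the mutant pools and 235, 405 and 604 in the WT pools. The onset mutant pool was the highest of the 6, slightly above the end-stage WT pool. Myh4, the heavy chain of the fastest (type IIB) fibres, was near background throughout, at −2.66, 19.4 and −6.27 in the mutant pools and −0.728, 5.48 and 15.8 in the WT pools. It was detected only in the onset mutant and end-stage WT pools. Mylk2, the kinase that phosphorylates the regulatory light chain in skeletal muscle, had 14.3, 15.2 and 4.94 in the mutant pools and 32.4, 19.0 and 25.3 in the WT pools. It was not detected in the onset and end-stage mutant pools. It was the only member with all 3 mutant pools below all 3 WT pools, as 598 (6.83%) of 8752 genes had.

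Actn3, the fast fibre α-actinin that anchors thin filaments at the Z-disc, had 106, 284 and 33.1 in the mutant pools and 182, 319 and 510 in the WT pools. Its lowest and highest pools were 15.4-fold apart, the widest range in intensity among the 8 members detected on all arrays. Ckm, the muscle creatine kinase that regenerates ATP beside the sarcomere, had 295, 985 and 173 in the mutant pools and 571, 883 and 1554 in the WT pools. Presymptomatic and onset mutant pools lay on either side of their WT pools, and the end-stage mutant pool was the lowest. Mb, myoglobin, which stores oxygen and is more abundant in oxidative than in fast glycolytic fibres, had 48.5, 230 and 134 in the mutant pools and 63.2, 130 and 109 in the WT pools. Here the end-stage mutant pool was above its WT pool and the second highest of the 6.

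**Figure D1:**
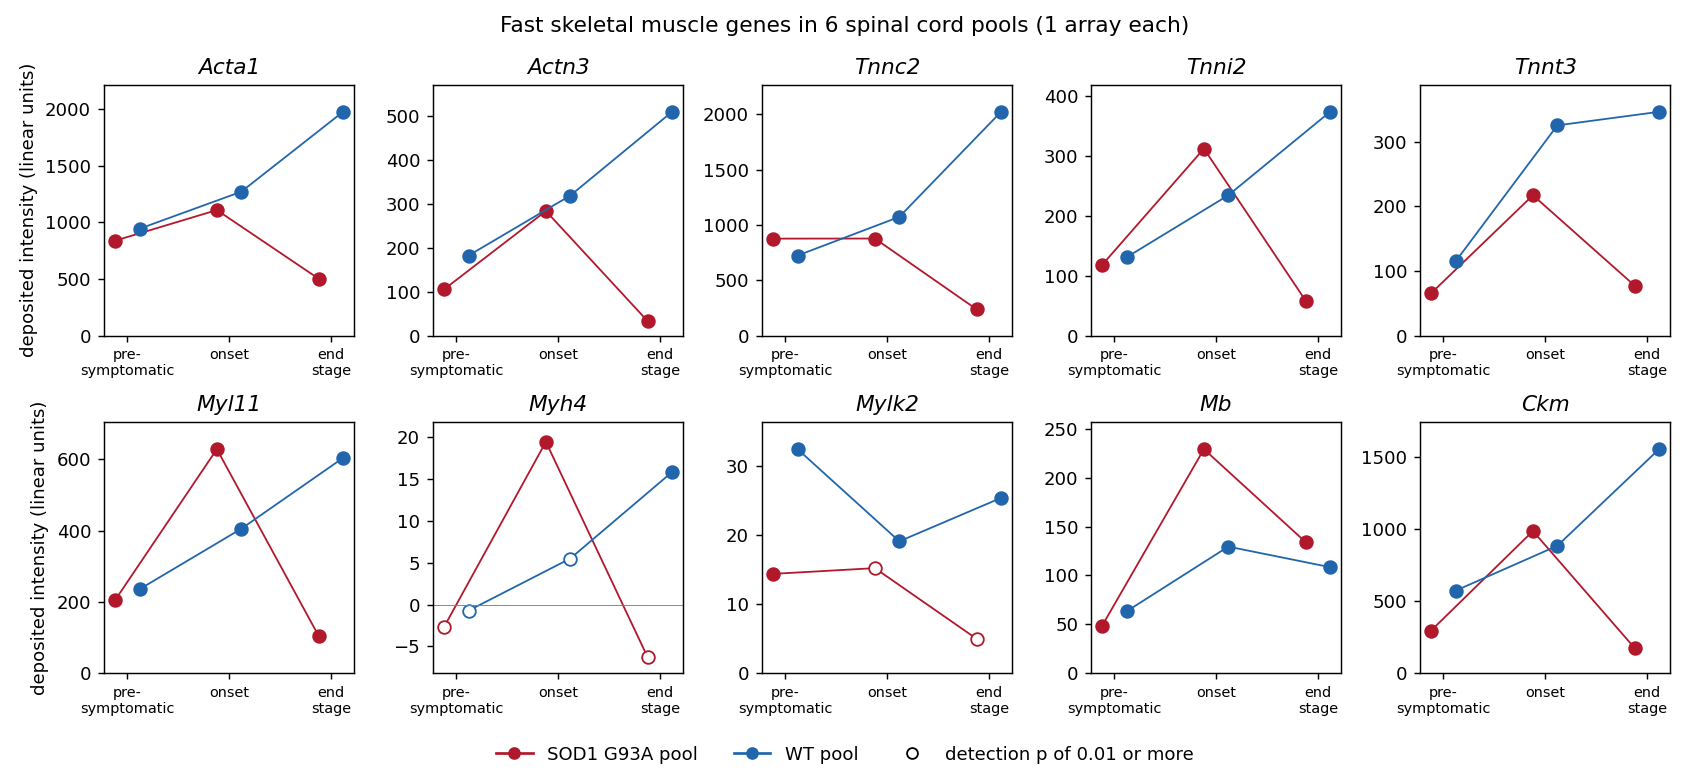
Deposited intensity (linear units, vertical axis, a scale of its own for each gene) of the 10 genes in the SOD1 G93A (red) and WT (blue) pools by stage, 1 array per point. Open points have a detection p of 0.01 or more. The end-stage WT point is the highest for 6 genes and the end-stage mutant point the lowest for 8.

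Differences between pools were taken on log2 intensities that were background-corrected and quantile-normalized, a scale that understates changes of dim probes. Genes detected on at least 1 of both arrays were compared, and since each group is 1 pool a difference of at least 2-fold was called without a test. In bulk RNA, fewer cells of a type and less RNA per cell cannot be told apart. At end stage 7 of the 10 members were at least 2-fold lower in the mutant pool, where 1.86% of 7942 genes were. That contrast chose the genes, so nothing is read from the count. Tnnc2 was 9.33-fold lower (log2 difference −3.22) and Ckm 8.80-fold (−3.14). Acta1 (−2.14), Actn3 (−2.04) and Myl11 (−2.01) were each lower by about 4-fold, and Tnni2 (−1.43) and Tnnt3 (−1.25) completed the 7.

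The other 3 members were under 2-fold at end stage on this scale. The mutant pool, where neither Myh4 nor Mylk2 was detected, was at least 1.02-fold lower for Myh4 and at least 1.05-fold lower for Mylk2. For such genes the lower side was set at the dimmest level that counted as detected on its array, or at the probe's own value where that was higher. Both turned direction with a 75th-percentile shift (Myh4 0.20, Mylk2 0.19), and without background correction both were at least 2-fold lower (−2.04 and −1.04), making 9 members. Mb was at 0.08. On the deposited intensities, without the compression of dim probes, the end-stage WT pool exceeded the mutant pool 15.4-fold for Actn3, 8.99-fold for Ckm, 8.52-fold for Tnnc2, 6.41-fold for Tnni2, 5.79-fold for Myl11, 4.48-fold for Tnnt3 and 3.93-fold for Acta1. Actn3, Tnni2, Tnnt3 and Myl11 thus had larger ratios on that scale, while those of Ckm and Tnnc2 were close on both.

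At the 2 earlier stages no member reached 2-fold between genotypes. In the presymptomatic mutant pool 2.64% of 7892 genes were at least 2-fold lower and 0.38% higher. The median of the 9 members measured there was −0.02, beside 0.03 over all genes. Ckm was 1.74-fold lower in the mutant pool (−0.80) and Tnnc2 1.27-fold higher (0.35), and the other 7 lay between −0.17 and 0.12. The directions of Tnni2, Myl11 and Mylk2 changed with the normalization. At onset, 5 members were higher and 5 lower in the mutant pool under each normalization tried, with a median of 0.01 beside −0.01 over all genes. At least 2-fold differences were seen in 1.88% of 7940 genes in the higher and 0.189% in the lower direction. Myl11 (0.78), Mb (0.42), Tnni2 (0.36) and Ckm (0.24) were the members above the WT pool by most. Tnnt3 (−0.49) and Tnnc2 (−0.28) were the furthest below it, and Myh4, detected in the mutant pool alone, was at least 1.01-fold higher.

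**Figure D2:**
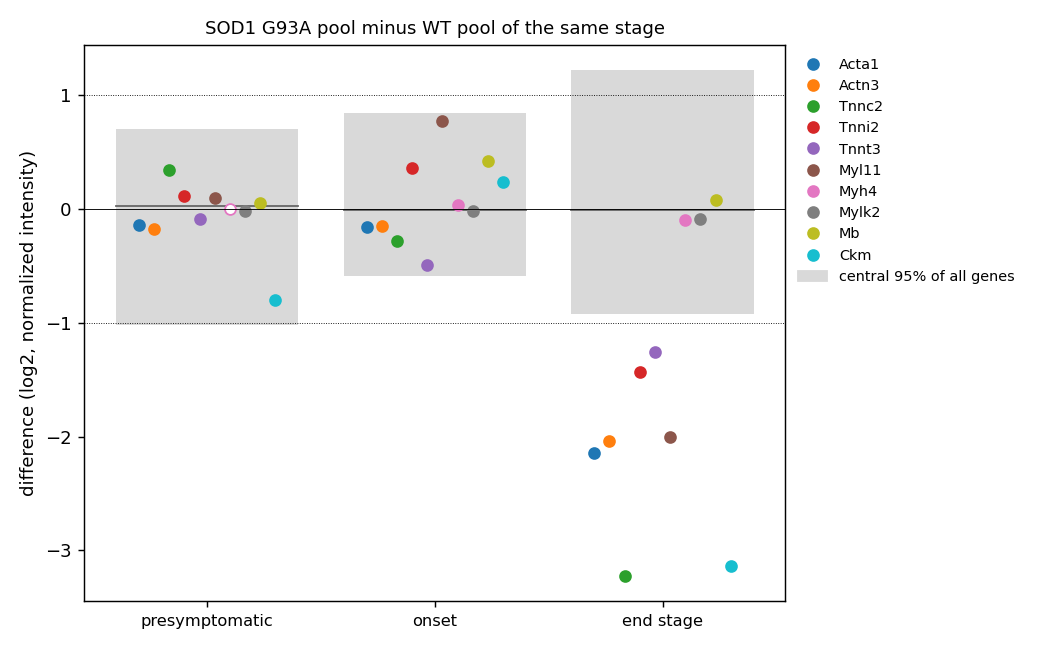
Log2 difference of normalized intensity, SOD1 G93A minus WT pool of the same stage, for each member (points). Grey bands span the central 95% of all genes compared, bars inside them their median, dotted lines mark 2-fold, and an open point was detected on neither array. All points of the 2 earlier stages lie inside the 2-fold lines, and 7 end-stage points lie below.

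The presymptomatic and onset pools allow 1 replicated comparison of genotypes that leaves out both end-stage arrays. With limma, 2 mutant against 2 WT pools, 0 of 12020 probes passed at an adjusted p below 0.05 (0.0%, lowest adjusted p = 0.999), and 514 had an unadjusted p under 0.05. All 10 members had an adjusted p of 0.999 and 0 had an unadjusted p under 0.05. Of the members 5 were higher and 5 lower, with a median of 0.00. Myl11 had the largest excess, 0.44 ± 0.62 (SE), and Tnnt3 the largest deficit, −0.29 ± 0.40. This fit had no term for stage, so differences between stages are part of these errors. Taken by stage, presymptomatic then onset, Myl11 was at 0.10 and 0.78 and Tnnt3 at −0.09 and −0.49. Without the presymptomatic mutant pool 8 were higher and 2 lower (median 0.10), and without the onset mutant pool 2 were higher and 8 lower (median −0.16). With the onset WT pool left out 9 were higher and 1 lower (median 0.13). The balance of directions thus turned with a single pool. Nothing in the labels says more about what separates pools of 1 genotype than their stage, so p-values measure the spread between pools.

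The members also differed between the WT pools, where no mutant gene is present. In the end-stage WT pool all 10 were higher than in the presymptomatic WT pool, with a median of 1.15 beside 0.01 over all genes. Of these, 7 were at least 2-fold higher, where 0.137% of 8029 genes (11 genes) were. The end-stage WT array is one of those that chose the members, so this is a description too. The 7 were Tnnc2 (3.05-fold), Ckm (3.02-fold), Myl11 (2.78-fold), Actn3 (2.74-fold), Tnni2 (2.24-fold), Acta1 (2.20-fold) and Tnnt3 (2.19-fold). This comparison and that of the end-stage genotypes share the end-stage WT array. The other 4 genes at least 2-fold higher were Myl1, a light chain of fast myosin, RT1-A2, an antigen-presenting class I gene, Igfbp6, a binding protein of insulin-like growth factors, and Vat1. These 4 were named after their values were seen. Mb was 1.20-fold higher and Mylk2 and Myh4 turned direction with another normalization.

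The onset WT pool, which is outside the end-stage contrast that chose the genes, lay between the other WT pools for most members. Against the presymptomatic WT pool 8 of the 9 members measured were higher, by 0.25 (Mb) to 0.87 (Tnnt3), and Mylk2 was at −0.04. The median was 0.56 beside 0.00 over all genes, of which 4008 were higher and 4044 lower. None of the members reached 2-fold, as 0.508% of 8065 genes did. Between the end-stage and onset WT pools all 10 were higher at end stage, the highest being Tnnc2 (0.995), Ckm (0.92) and Actn3 (0.89), with 0 at 2-fold beside 0.0512% of 7817 genes. Mb, Myh4 and Mylk2 turned direction there with another normalization. With the onset WT pool in place of the end-stage one, the end-stage mutant pool was still at least 2-fold lower for Tnnc2 (−2.23), Ckm (−2.22), Acta1 (−1.46), Myl11 (−1.22) and Actn3 (−1.15), where 1.62% of 8069 genes were. With the presymptomatic WT pool it was so for Tnnc2 (−1.62), Ckm (−1.54) and Acta1 (−1.01), where 2.76% of 8271 genes were. Both counts use the end-stage mutant array that served in choosing the genes. The onset mutant pool was at least 2-fold higher than the presymptomatic WT pool for Myl11 alone (1.46), where 3.17% of 8150 genes were. The presymptomatic mutant pool was at least 2-fold lower than the onset WT pool for Ckm alone (−1.47), where 2.33% of 7677 genes were. Against the end-stage WT pool, an array that chose the members, it was so for 7 members, from Tnni2 (−1.04) to Ckm (−2.40), where 1.7% of 7456 genes were.

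Among the mutant pools the members were highest at onset. Against the presymptomatic mutant pool 8 of 10 were higher at onset (median 0.52, Myh4 lower with another normalization), and Ckm (3.28-fold) and Myl11 (2.58-fold) reached 2-fold, where 4.39% of 7811 genes did. Tnnc2 was level (−0.01). Against the onset mutant pool all 9 members measured had lower values in the end-stage mutant pool under each normalization tried. Of them Ckm (−2.46), Myl11 (−1.99), Tnnc2 (−1.95), Acta1 (−1.30) and Tnni2 (−1.03) were at least 2-fold lower, where 1.15% of 8099 genes were, with Actn3 just short of it (−0.996). Against the presymptomatic mutant pool, Tnnc2 alone was at least 2-fold lower at end stage (−1.96, beside 2.13% of 7693 genes), and Acta1 (−0.87), Ckm (−0.74) and Myl11 (−0.63) followed. The end-stage mutant pool served in choosing the genes, and the presymptomatic one is the pool that stood apart.

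**Figure D3:**
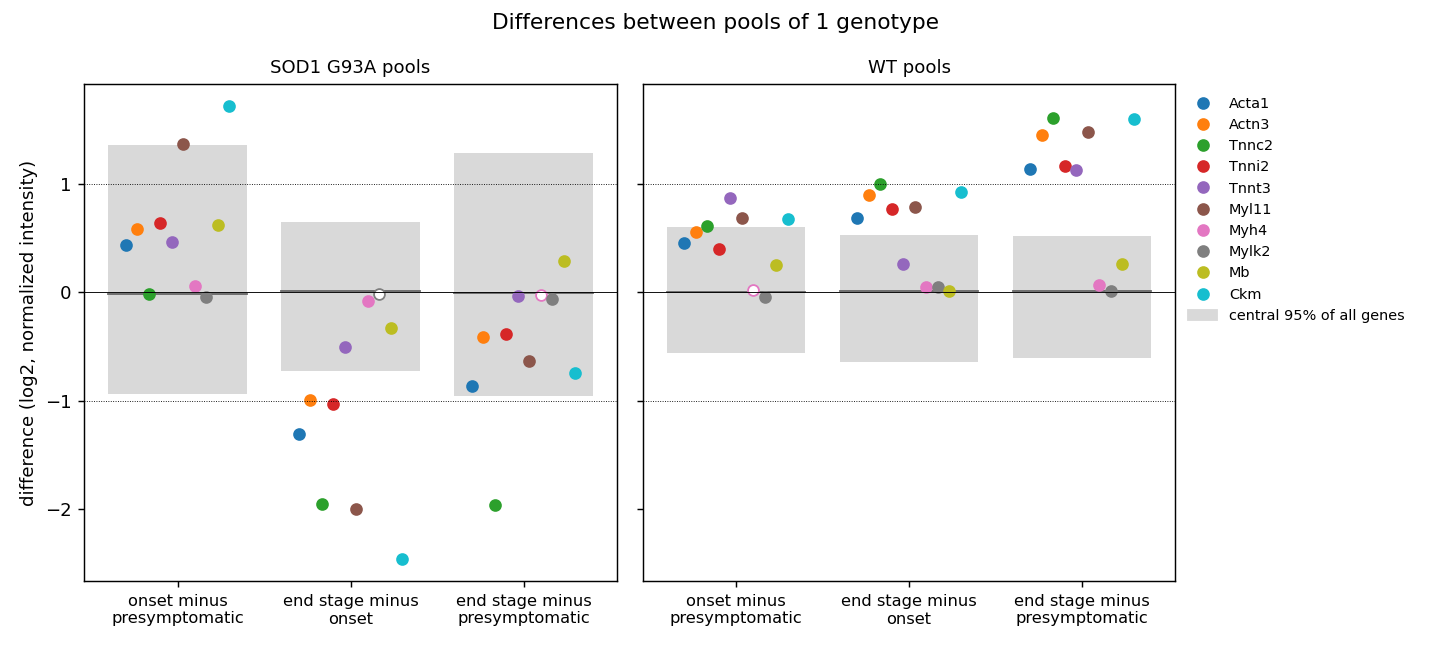
Log2 difference of normalized intensity between pools of 1 genotype, SOD1 G93A on the left and WT on the right, for each member. Grey bands span the central 95% of all genes compared and dotted lines mark 2-fold, and an open point was detected on neither array. In the end-stage minus presymptomatic WT pools 7 points lie above 2-fold, and in the end-stage minus onset mutant pools 5 lie below.

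A comparison of stages over both genotypes, onset against presymptomatic, was added after the values were seen. It leaves out both end-stage arrays, but the members were picked with earlier results of these data known, so it is a description too. The members also varied together across the arrays, so counts of them are not counts of separate results. Of the 10 members 9 were higher at onset and 1 (Mylk2) lower, with a median of 0.48 beside −0.01 over all 12020 probes, of which 5586 were higher and 6434 lower. In limma 0 probes passed at an adjusted p below 0.05 (0.0%, lowest adjusted p = 0.486), and 971 (8.08%) had an unadjusted p under 0.05, among them 6 of the members. Ckm was higher at onset by 1.19 ± 0.34 (SE, adjusted p = 0.584), Myl11 by 1.03 ± 0.31 (adjusted p = 0.599) and Actn3 by 0.57 ± 0.10 (adjusted p = 0.486), none of which passed. Mb (0.43 ± 0.18, adjusted p = 0.679) did not pass either. The members' median was 0.46 to 0.49 when any 1 of the 4 pools, the presymptomatic mutant pool included, was left out.

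Over the 6 arrays, 8 members followed the mean of the 10 (each centred on its own mean) with Pearson's r of 0.90 (Tnnt3) to 0.98 (Acta1), while Mylk2 had r = 0.47 and Mb r = 0.27. These are descriptions over 6 arrays, and each member is itself part of the mean. Without the presymptomatic mutant pool the 8 had r of 0.90 (Tnnt3) to 0.99 (Ckm), Mylk2 0.56 and Mb 0.18 over 5 arrays. Among 1117 other genes that ranged over at least 2-fold, the 10 most like this mean were Pacsin1 (r = 0.91), Mapk12 (0.91), Rab4a (0.88), Cacng2 (0.87), Sympk (0.86), Mtch1 (0.85), Myl1 (0.85), Rell2 (0.84), Kifc2 (0.84) and Nacc2 (0.84). Without the presymptomatic mutant pool, Sympk (r = 0.99) and Pacsin1 (0.92) alone of these were still among the 10 most alike. Myl1, the only muscle list gene of the 10, then had r = 0.85 and rank 39. Its intensity was 127, 598 and 168 in the mutant pools at the presymptomatic stage, onset and end stage and 175, 358 and 484 in the WT pools. As with Myl11, the onset mutant pool was the highest of the 6.

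Other genes of skeletal muscle were set beside the members in 6 lists of 116 genes, not all of which are on the array. On it were 13 of 22 other sarcomere genes, 15 of 16 slow and cardiac sarcomere genes and 11 of 18 calcium release genes. Of the energy supply, junction and membrane, and myogenic lists 16 of 20, 23 of 26 and 12 of 14 were on it. Nothing is known here of the rest. At end stage 57 of the 116 were measured, of which 21 were higher and 36 lower in the mutant pool. Of these, 3 were at least 2-fold lower (1.86% of all genes measured) and 1 at least 2-fold higher (3.68% of all genes). Among other sarcomere genes, not all of them particular to fast fibres, 9 of 10 were lower in the mutant pool (median −0.12, beside −0.01 over all genes). Myl1 was 2.63-fold lower (−1.40), while Tpm1, a tropomyosin that is also made outside muscle, was at −0.51 and Mybph, a myosin-binding protein, at −0.03. This scale understates dim probes. In deposited intensity Mybpc2 had 21.4 in the end-stage mutant pool and 124 in the WT pool, and Myot 20.8 and 85.5. Actn2 (41.8 and 50.9) differed less, and Ldb3, the only gene higher in the mutant pool, had 40.3 and 31.1. Cox8b, of the energy supply list, had 18.0 and 76.3, while 2 genes of that list were higher in the mutant pool. These 5 genes were named after their values were seen. Among slow and cardiac sarcomere genes 6 of 10 were lower (median 0.00), with Tpm3 at −0.84, Myh7 at −0.45 and Tnnc1, the slow and cardiac troponin C, at 0.00. The cardiac troponin T gene Tnnt2 ran opposite to the fast Tnnt3 and was 2.32-fold higher in the end-stage mutant pool, at 336 against 60.9 in the end-stage WT pool. Myl2, Tnni1, Myh6, Actc1 and Mybpc3 of this list were detected on no array.

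Of 14 genes of muscle energy supply 12 were lower in the mutant pool (median −0.19), as were 4195 of all 7942 genes. Among the 12 were Fabp3, a carrier of fatty acids (2.24-fold), Pfkm (−0.76), Pygm, the muscle glycogen phosphorylase (−0.89), and Aldoa (−0.43). Between the end-stage and presymptomatic WT pools these were at 0.61, −0.05, 0.16 and 0.27, with a list median of 0.15 beside 1.15 for the members. Whether these transcripts came from muscle or from cord cells was not tested. Of the calcium release list 4 of 5 were lower, with Pvalb, a calcium buffer of fast fibres and of some neurons, at −1.10, Cacnb1 at −0.41 and Hrc at −0.01. Of the junction and membrane list, 11 of 15 genes were higher in the mutant pool (median 0.05), led by Des, the muscle intermediate filament (0.78), and Dmd, dystrophin (0.35), with Sgca at −0.05. Des was also higher in the mutant pools of the presymptomatic stage (0.64) and onset (0.74). Myogenic factors were at or near background. Of the 12 on the array 3 were measured (Cdh15 −0.01, Msc 0.05, Mef2d 0.02), and Myod1, Myog, Myf5, Myf6 and Pax7 were detected on no array. Of the neuromuscular junction genes Chrna1, Musk and Dok7 were detected on no array and Chrne and Chrng on 1. Chrnb1 and Colq were detected on all 6 and Chrnd and Rapsn on 5 (genes named after their values were seen). All of these were dim, with intensities of at most 56.3 (Colq, presymptomatic mutant pool).

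Markers of other tissues that a cord sample could hold differed in pattern, and their part in the results was not tested. Summed fibroblast and meninges, Schwann cell and sensory neuron genes were highest in the end-stage mutant pool. Sums of red blood cell, adipocyte and smooth muscle genes were highest in an onset pool. The summed intensity of 11 detected fibroblast and meninges genes was 24776 to 43038 in the mutant pools, highest at end stage, and 19701 to 31937 in the WT pools, lowest at end stage. It thus ran opposite to the members there, with Col1a2 at 1.25 and Dcn at 1.09. The 2 detected Schwann cell genes, Egr2 (0.84) and Dhh (1.28), did the same, with sums of 1752 to 3472 in mutant and 1736 to 3034 in WT pools. The 3 detected sensory neuron genes summed to 29.5 to 582 in mutant and 38.5 to 192 in WT pools, highest in the end-stage mutant pool through Scn10a (416, against 15.7 in the end-stage WT pool). Red blood cell genes (7 of 7 detected) summed to 30726 to 42871 in mutant and 33485 to 43954 in WT pools, and the globin genes Hbb (−0.36) and Hba-a1 (−0.09) were slightly lower in the mutant pool at end stage. Of the adipocyte list 2 of 7 were detected (69.2 to 278 in mutant, 208 to 266 in WT pools), with Adipoq, Cidec, Lep, Retn and Ucp1 undetected. Smooth muscle genes (5 of 7 detected) summed to 334 to 821 in mutant and 472 to 885 in WT pools, with Cnn1 and Mylk undetected.

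Genes of the cord itself had lower values in the mutant pool of end stage, as most of the members had. Motor neuron genes (9 of 9 detected) summed to 11242 to 23383 in the mutant pools and 20277 to 28586 in the WT pools, with Nefl at −1.11 and Prph at −0.63 at end stage. At that stage 8 of the 9 were lower in the mutant pool and 3 at least 2-fold lower, where 1.86% of 7942 genes were. The lowest were Slc18a3 (−2.09) and Nefh (−1.97), named after their values were seen. Between the presymptomatic pools, which include the mutant pool that stood apart, Nefh was lower still in the mutant (−3.32) and Slc18a3 was higher (0.48). Sums of neuron genes were 20497 to 27548 in mutant and 31985 to 34327 in WT pools. Of the 11 single neuron genes, 1 had all 3 mutant pools below all 3 WT pools, as 6.83% of 8752 genes had. Oligodendrocyte genes summed to 21053 to 30160 in mutant and 26509 to 32962 in WT pools, and astrocyte genes to 20318 to 29506 in mutant and 26244 to 30836 in WT pools. Median end-stage differences were −0.63 for motor neurons, −0.66 for neurons, −0.44 for oligodendrocytes and −0.60 for astrocytes. These medians were smaller than the −1.72 of the members, which were chosen for that difference, while Slc18a3 and Nefh lay below −1.72. Between the end-stage and presymptomatic WT pools the medians of these lists, in the same order, were −0.04, −0.04, −0.32 and −0.09, beside 1.15 for the members.

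**Figure D4:**
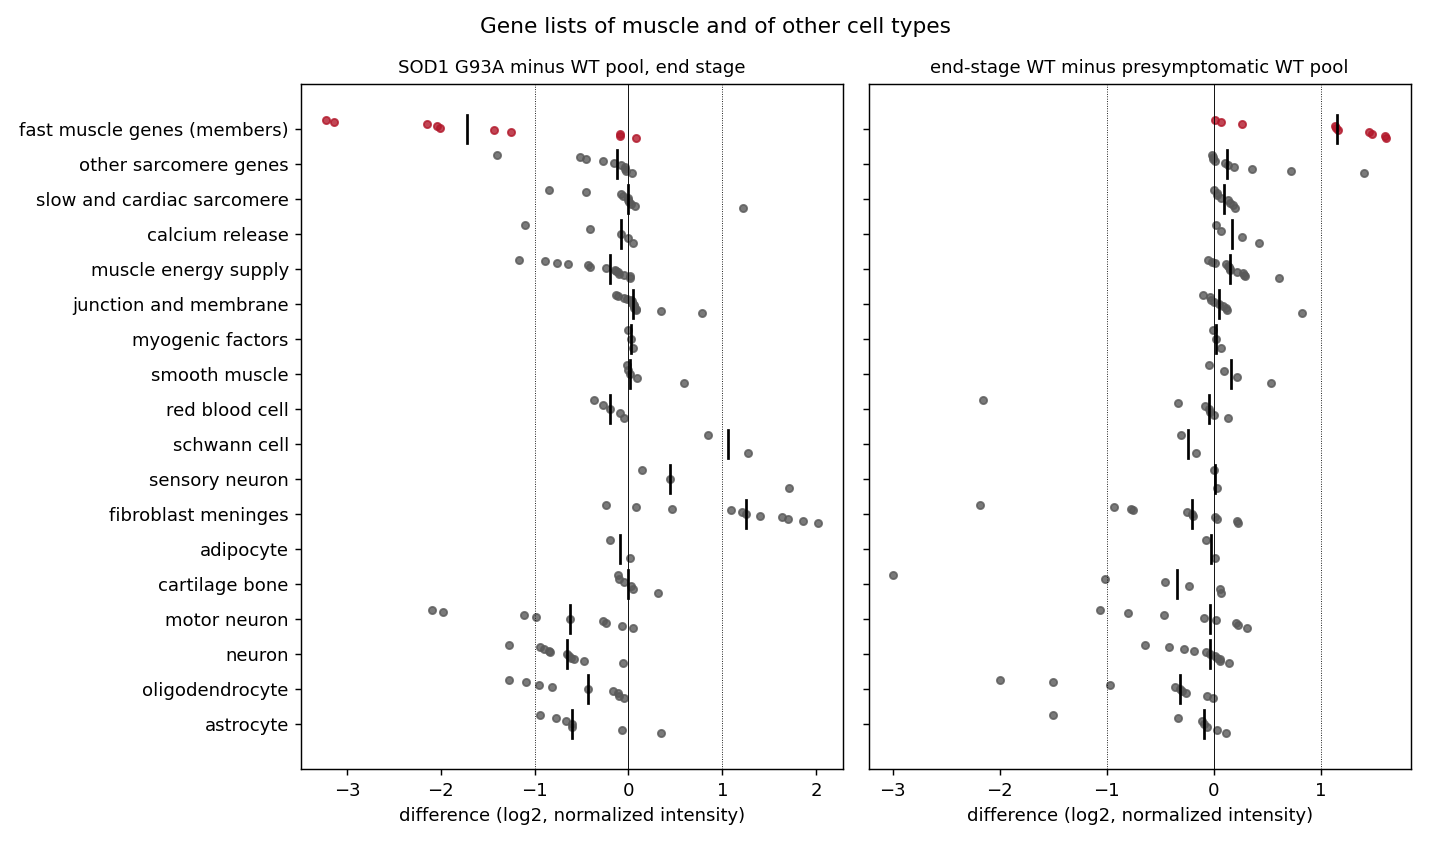
Log2 difference of normalized intensity for single genes (points) detected on at least 1 of both arrays, and the median of each list (bars), SOD1 G93A minus WT pool at end stage on the left and end-stage minus presymptomatic WT pool on the right; dotted lines mark 2-fold. The members' medians are −1.72 and 1.15, and no other muscle list has a median beyond −0.19 on the left.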

How the data were processed

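RNA pools of rat spinal cord were measured on 6 Illumina arrays. The authors deposited, for each probe, an intensity and a detection p-value from BeadStudio 3.2.6, per the submitters' processing notes. The deposited intensities hold negative values and have nearly equal means (331 to 332), and a second deposited table holds intensity values normalized in a way not given in the sources used here. Both tables rank the probes alike on each array. Probe IDs were sorted as text and set against the rows, as described with the arrays. Gene names came from the platform annotation (13192 of 22226 probes with 1 symbol, 9034 unnamed). Of the named probes 13151 were found in the RefSeq table of GRCr8, with 0 symbols changed. Where a gene had several probes the brightest was used.

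Intensities were corrected with limma 3.58.1 (neqc, noise from the detection p-values, offset 16, quantile normalization, log2) in R 4.3.3. A probe was detected at a detection p below 0.01. Called differences were at least 2-fold between single pools, and in limma an adjusted p (Benjamini-Hochberg, two-sided) below 0.05 over probes detected on at least 1 of the 4 arrays used. The limma step was tested on simulated data that held larger differences than the members showed in it and no difference between stages. That run says nothing of the power of the comparisons here. The number of arrays limits the precision.

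Groups follow the labelled genotype and stage, and 0 columns were left out. The members and lists were chosen with earlier results of these data known. Named are all members, from each muscle list up to 3 genes with the highest mean level and those at 2-fold between the end-stage pools, from each list of other cell types up to 2 plus undetected ones, and the 10 genes most like the members' mean. Scn10a, Egr2, Dhh and the rest follow this rule, apart from genes said to be named after their values were seen. Alternatives tried were the background correction, the offset, a 75th-percentile shift, the deposited normalized values, filters on dim probes, the mean of a gene's probes, probe IDs as deposited, other WT pools as the reference, and leaving out each pool. Correlations without the presymptomatic mutant pool were added after the values were seen.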

Additional observations from a re-analysis of the deposited data

Results flagged for a closer look

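The difference between mutant and WT pools had opposite signs at different stages for 5 of the genes, with 1 pool on each side. The change between stages was not tested in any of them.

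Tnnc2 was higher in the presymptomatic mutant pool (log2 difference 0.35) and lower in the mutant pools of onset (−0.28) and end stage (−3.22). Tnni2 was higher in the mutant pools of the presymptomatic stage (0.12) and onset (0.36) and lower at end stage (−1.43), and Myl11 likewise (0.10, 0.78 and −2.01). Ckm was lower in the presymptomatic mutant pool (−0.80), higher at onset (0.24) and lower at end stage (−3.14). Myh4, near background, was at 0.034 at onset and −0.09 at end stage. The presymptomatic signs of Tnni2 and Myl11 and the end-stage sign of Myh4 changed with the normalization.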

How the results depend on the processing

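Each group has 1 pool, so the genotypes pair by stage alone. With stage as a block in the limma comparison of genotypes, which pairs the presymptomatic and onset pools, 0 probes passed (675 at an unadjusted p under 0.05, smallest adjusted p = 0.882), as under every alternative run of that comparison and of onset against presymptomatic pools. With single pools left out the members' median in the comparison of genotypes was −0.16 to 0.13, and of stages 0.46 to 0.49, with 0 probes called in each.

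The probe order decided the end-stage deficit. With IDs as deposited the members' end-stage median was −0.054 with 0 of 5 members measured at least 2-fold lower, Tnnt3 was 0.53 higher in the mutant pool, and 1 member was at least 2-fold lower at the presymptomatic stage. The reference pool mattered next. Against the presymptomatic WT pool the end-stage mutant median was −0.53 (3 members at least 2-fold lower), and 1 member was at least 2-fold higher in the onset mutant pool. The presymptomatic mutant pool had 1 member at least 2-fold lower against the onset WT pool, and 7 (median −1.24) against the end-stage WT pool, an array that chose the members.

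Between pools of 1 genotype, counts past 2-fold moved with the scale. For onset minus presymptomatic WT pools the count was 1 with regressed noise, with no background correction and with the deposited normalized values, and for end-stage minus onset WT pools 6 with the 75th-percentile shift and 1 with the deposited normalized values, all in place of 0. For onset minus presymptomatic mutant pools it was 4 with no background correction and 6 with the deposited normalized values, in place of 2. For end-stage minus presymptomatic mutant pools it was 4 with regressed noise, 4 with no background correction, 2 with the 75th-percentile shift and 2 with the deposited normalized values, in place of 1. For end-stage minus onset mutant pools the median was −1.81, −1.86 and −1.75 with regressed noise, no background correction and the deposited normalized values, and the count 8 with no background correction, in place of −1.03 and 5. The cause was not tested, although neqc compresses dim probes. The median difference of all genes was 0.14 (presymptomatic) and 0.16 (end stage) after the 75th-percentile shift and 0.11 (presymptomatic) with the deposited normalized values.

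Of the summary values under an alternative 148 of 172, and of single members' values 500 of 584, moved by no more than 1.5-fold. Part of these could not move. Each member has 1 probe, so the mean of probes repeats its value, and filters on dim probes leave a single member's value unchanged. The totals are therefore not a measure of stability. With 1 pool a group, differences between pools have no error, and Myh4 and Mylk2 lie too near background to be ranked.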

Other observations

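Genes of bone and cartilage were highest in another pool than the muscle genes. Bglap, osteocalcin, had an intensity of at most 223 in the mutant pools, reached at onset, and of 940, 68.2 and 18.2 in the WT pools at the presymptomatic stage, onset and end stage. Col2a1, the main collagen of cartilage, had 32.9, 28.9 and 20.2 in the mutant pools and 288, 116 and 43.8 in the WT pools. The presymptomatic WT pool, the highest for both, had the lowest WT sum of the members. Of the 11 bone and cartilage genes on the array 6 were detected on at least 1 array, with sums of 158 to 313 in mutant and 128 to 1460 in WT pools.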
